A study of Caenorhabditis elegans with 12 samples.

Results

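The comparison is between germ lines mutant for either of 2 histone methyltransferases, mes-4 mutants minus mes-2 mutants of Caenorhabditis elegans. It uses 8 of the 12 two-colour arrays of the study, the 4 on which a mes-4 mutant was set against wild type and the 4 on which a mes-2 mutant was. For each gene the quantity is the mean log2 ratio of mutant over wild type in mes-4 minus the same mean in mes-2, fitted together with the effect of dye. A log2 difference of 1 is a 2-fold difference between both ratios, and a positive value is higher in mes-4. The mes-4 mutants were strain SS0803 and their wild type was strain N2. The mes-2 mutants were strain SS0186 and their wild type was unc-4(e120), so the choice of wild type and of mutant cannot be told apart in any difference below. The labels give no mes-2 or mes-4 allele and do not say whether SS0186 carries an unc-4 mutation. All RNA came from dissected germ lines of adults grown at 20 degrees, taken from animals with at most a few fertilized embryos, and the 4 replicates of a group were harvested independently. The remaining 4 arrays, of mes-2; mes-4 double mutants (strain SS0965, against unc-4(e120)), served to estimate the spread and the dye effect, and their values are given for reference only.

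MES-2 is the catalytic subunit of the worm Polycomb repressive complex 2, which places methyl groups on lysine 27 of histone H3, a mark of silent chromatin that is dense on the X chromosome in the germ line. MES-4 methylates lysine 36 of histone H3 on genes that are expressed in the germ line, most of them autosomal, and passes this mark on to the next generation. Worms without either protein produce offspring with a degenerating germ line, and both proteins are known for keeping X-linked genes silent there. A dissected gonad holds germ cells with their somatic sheath, and intestine, muscle or neurons can adhere to it. In such bulk RNA a smaller number of cells of a type and less RNA per cell cannot be told apart.

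Dyes were swapped evenly within each group, with Cy5 in the mutant channel of 2 arrays and Cy3 in that of the other 2. Log ratios of all genes correlated at r = 0.624 and 0.655 within the mes-2 group for arrays of the same dye and at -0.085 to 0.027 for arrays of opposite dye. Within the mes-4 group these values were 0.356 and 0.802 for the same dye and -0.046 to 0.278 for opposite dyes. A mes-4 and a mes-2 array of the same dye correlated at r = 0.2 to 0.482 (8 pairs), and at -0.141 to 0.003 in opposite dyes (8 pairs). Every fitted difference therefore includes the dye term. Within-dye values are given for gene sets and for a few genes only. Other genes named below diverged by dye too, such as gpa-1 (-1.745 within Cy5 and -3.04 within Cy3 arrays) and R06C1.4 (2.595 and 1.125). The mes-2 probe was low on all 4 mes-2 arrays, at -2.09, -3.72, -2.58 and -2.81 for replicates 1 to 4, and lay at -0.41, -0.02, -0.66 and 0.25 on the mes-4 arrays. Its difference was 2.59 with a standard error (SE) of 0.28 (limma, Benjamini-Hochberg adjusted p = 0.00119). The mes-4 probe gave no such check, with 0.61, 0.82, -0.01 and 1.10 on the mes-4 arrays against 0.45, -0.09, 0.26 and -0.22 on the mes-2 arrays (difference 0.53, SE 0.34, limma adjusted p = 0.615). The mes-2 probe checks the direction of the mes-2 arrays, and that of the mes-4 arrays rests on the labels and on the dye effect, which ran the same way in all 8 pairs of same-dye arrays above. With the sign of the mes-4 ratios turned, those 8 pairs would correlate at -0.482 to -0.2 and the opposite-dye pairs at -0.003 to 0.141. The unc-4 probe differed by 0.12 (SE 0.30, limma adjusted p = 0.961).

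Of 12887 genes tested, 252 differed between both mutants at an adjusted p under 0.05 (limma), which is 1.96% of the genes. In mes-4, 84 were higher than in mes-2 (0.652%) and 168 were lower (1.3%), with 46 of the former and 111 of the latter past 2-fold. The most frequent kind, with 107 of the 168 lower genes, was a gene raised in mes-2 over its wild type and not called in mes-4. Next came 46 genes raised in mes-4 and not called in mes-2, 32 of them X-linked, followed by 34 genes lowered in mes-4 alone and 25 lowered in mes-2 alone by the same calls. Another 15 genes were called in both mutants in opposite directions. Of the rest, 13 were called the same way in both mutants but to a different extent, and 12 were called in neither. Against its own wild type, each mutant had more calls than the difference had: 504 in mes-4 (3.91%), 325 of them higher (2.52%), and 676 in mes-2 (5.25%), 508 of them higher (3.94%). Of 153 genes called in both mutants, 138 went the same way, and only 13 of these 138 differed between the mutants by the test. These counts depend on the direction of the mes-4 ratios. With their sign turned, 247 genes were called in mes-4, 366 in mes-2 and 558 in the difference, and of the genes called in both mutants 5 went the same way and 51 opposite ways.

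On the raw array values, the mes-4 and mes-2 arrays that measured a gene did not overlap for 230 of the 252 called genes. Of these 252, 240 had a value on all 8 arrays. Over all 11986 genes with 8 values, the groups did not overlap for 759 (6.33%). The difference had the same sign among Cy5 arrays and among Cy3 arrays for 252 of the 252 called genes. These genes were called on the same arrays, so neither count of called genes is a separate check. Across all 12887 genes, called or not, the within-Cy5 and within-Cy3 differences correlated only at r = 0.221 (Spearman 0.102, genes not being independent). The number of calls depended on single arrays of either mutant. It was 100 without mes-4 replicate 1, 123 without replicate 2, 164 without replicate 3 and 148 without replicate 4, and 157, 145, 240 and 174 without mes-2 replicates 1 to 4. A fit of the 8 single-mutant arrays alone called 386 genes, and one without the dye term 117.

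**Figure D1:**
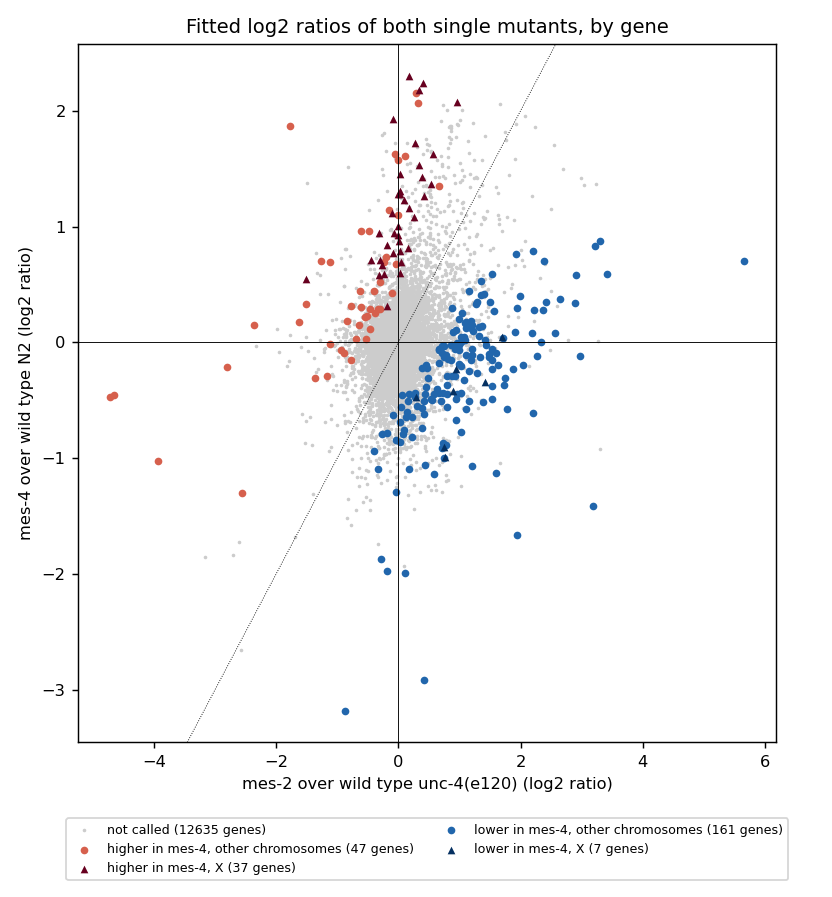
Each point is 1 of 12887 genes, with its fitted log2 ratio in mes-2 over unc-4(e120) on the horizontal axis and in mes-4 over N2 on the vertical axis. Genes called in the difference are coloured, triangles are X-linked and the dotted diagonal marks equal ratios. Blue points spread to the right at a mes-4 ratio near 0, and the 37 X-linked genes called higher in mes-4 form a column above 0 near the vertical axis.

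The 107 genes raised in mes-2 and not called in mes-4 had a median log2 ratio of 1.19 in mes-2 (range 0.38 to 5.66), -0.06 in mes-4 and 0.30 in the double mutant. Their median difference was -1.25, with -1.23 among Cy5 and -1.31 among Cy3 arrays. unc-31 encodes CAPS, which primes dense-core vesicles for release in neurons. Its log2 ratio was 3.03, 3.11, 2.97 and 2.48 on the mes-2 arrays and 0.39, 0.29, 0.08 and 0.61 on the mes-4 arrays. The mes-2 values were high on every array and the groups lay far apart (difference -2.56, SE 0.31, limma adjusted p = 0.00217). snt-4, a synaptotagmin, gave 1.36, 1.75, 2.06 and 2.31 in mes-2 and -0.29, -0.28, -0.38 and 0.04 in mes-4 (difference -2.10, SE 0.23, limma adjusted p = 0.00217). gpa-1 encodes a G protein alpha subunit of sensory neurons. It reached 2.43, 3.49, 3.60 and 3.38 in mes-2 against 0.77, 0.02, 1.5 and 1.04 in mes-4, which again did not overlap (difference -2.39, SE 0.34, limma adjusted p = 0.00548). nlp-40, named for the neuropeptide-like family and not taken here as a neuronal gene, stood at 1.78, 1.39, 1.72 and 1.21 in mes-2 and at -0.60, -0.42, -0.06 and 0.16 in mes-4. Its difference of -1.75 had the small SE of 0.11 (limma adjusted p = 7.19e-05).

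cls-1, a microtubule-stabilising protein of the CLASP family, had the lowest difference among the named genes of this kind with a symbol. It gave 2.80, 2.14, 2.67 and 4.28 in mes-2 and -0.31, -0.45, -0.06 and 0.36 in mes-4 (difference -3.09, SE 0.49, limma adjusted p = 0.012). Without mes-4 replicate 1 the adjusted p of cls-1 was 0.0531. ndx-2, a hydrolase of the Nudix family, was at 2.58, 2.37, 3.30 and 1.98 in mes-2 and at -0.37, -0.72, 1.17 and 0.26 in mes-4 (difference -2.47, SE 0.24, limma adjusted p = 0.000635). dpy-31, an astacin-type protease that trims cuticle procollagen, was at 2.62, 1.87, 2.46 and 1.82 against 0.04, 0.21, 0.21 and -0.14. The mes-4 values of dpy-31 stayed close to 0 on every array (difference -2.11, SE 0.21, limma adjusted p = 0.000712). samt-1, a mitochondrial carrier of S-adenosylmethionine, differed by -2.09 (SE 0.23, limma adjusted p = 0.00119), with mes-2 values from 1.73 to 3.03 and mes-4 values from -0.08 to 0.70. haf-9, an ABC transporter of lysosome-related organelles in the intestine, differed by -2.10 (SE 0.42, limma adjusted p = 0.029), but was called in only 5 of 12 fits that each left out 1 array, with the highest adjusted p, 0.109, without mes-4 replicate 1. evl-18 differed by -2.23 (SE 0.35, limma adjusted p = 0.0122), and its adjusted p was 0.0531 without mes-4 replicate 1.

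The largest differences of this kind were in genes with sequence names alone, picked after their values were seen. F13H8.8 on chromosome II had 5.38, 5.79 and 6.19 on the 3 mes-2 arrays that measured it, and 0.63, -0.05, 0.80 and 1.42 on the mes-4 arrays (difference -4.96, SE 0.39, limma adjusted p = 0.000561). W03A5.2 on chromosome III had 3.02, 3.56, 3.37 and 3.72 in mes-2 against 0.45, 0.11, 1.13 and 0.66 in mes-4 (difference -2.83, SE 0.24, limma adjusted p = 0.00024). In the double mutant, F13H8.8 had a fitted log2 ratio of 3.29 and W03A5.2 of 2.36, whereas unc-31 had 0.83, snt-4 0.47, nlp-40 0.03 and dpy-31 0.35. Over the 107 genes, 76 lay above 0 in the double mutant, beside 5385 of 11136 autosomal and 1142 of 1702 X-linked genes tested.

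**Figure D2:**
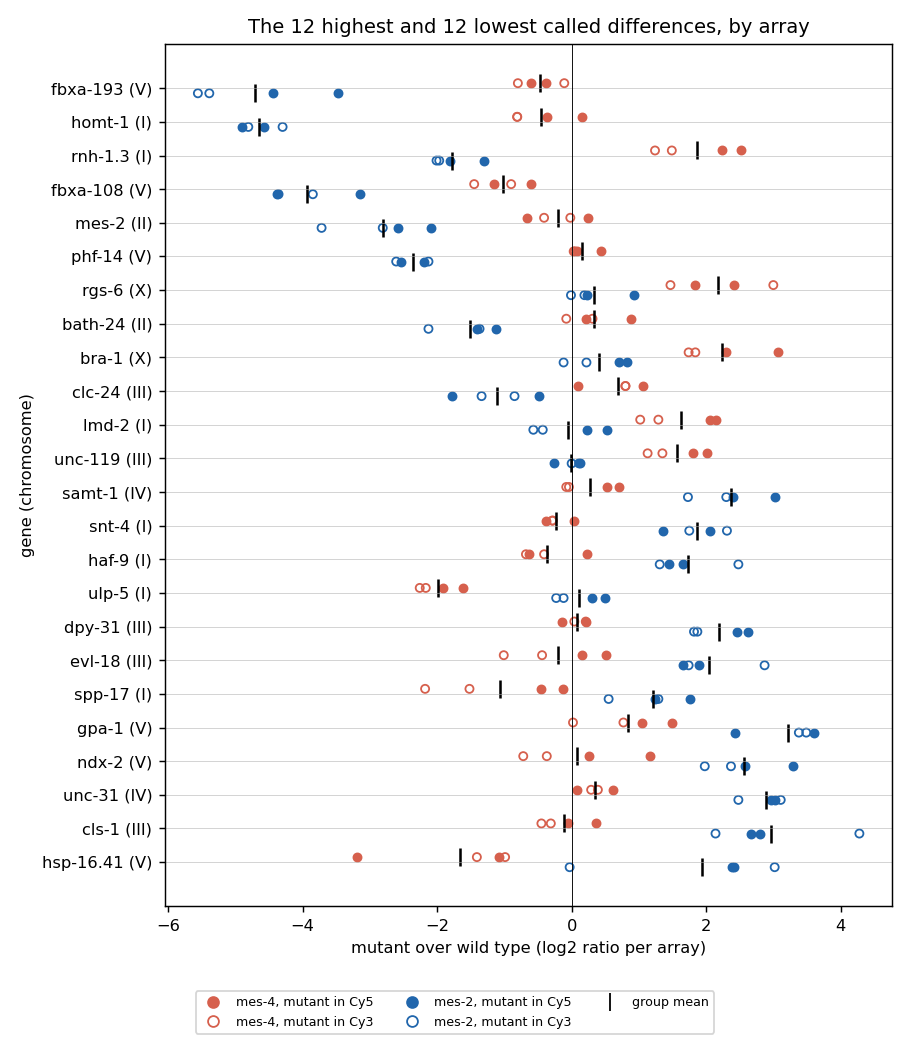
The 12 highest and 12 lowest called differences among genes with a symbol, 1 gene per line with its chromosome, and the log2 ratio of mutant over wild type of each array on the horizontal axis. Filled points are arrays with the mutant in Cy5, open points those with the mutant in Cy3, and bars are group means. For the lower part most genes have mes-2 points far right and mes-4 points near 0, whereas at the top homt-1, phf-14 and the F-box genes fbxa-193 and fbxa-108 have mes-2 points far left.

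The 46 genes raised in mes-4 and not called in mes-2 had a median log2 ratio of 1.04 in mes-4, -0.01 in mes-2 and 1.34 in the double mutant, where 46 of 46 lay above 0. Of all genes tested, 1142 of 1702 X-linked and 5385 of 11136 autosomal genes lay above 0 there. The 46 genes were mostly X-linked. Of the 84 genes higher in mes-4, 37 were on the X (44.05%), against 13.21% of the genes tested and 7 of the 168 lower genes (4.167%). As a share of the chromosome, 2.174% of the X-linked genes tested were called higher, against 0.652% of all genes. The X-linked count fell with single arrays, to 13 of 29 higher genes without mes-4 replicate 1, and to between 19 and 22 without any other single-mutant array. The X-linked share was 33.85% without mes-2 replicate 3, 44.83% without mes-4 replicate 1 and 54.35% with the 8 arrays alone. It was 2 of 10 (20%) among differences past 1.5-fold by limma's treat test. With the sign of the mes-4 ratios turned, 1.92% of the higher genes and 155 of 454 lower genes (34.14%) were X-linked. Of the 37 genes, 37 lay above 0 in mes-4 and in the double mutant, with medians of 1.08 and 1.75, and 21 in mes-2, with a median of 0.02. Of all 1702 X-linked genes tested, 1098 lay above 0 in mes-4 and 926 in mes-2.

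Most X-linked genes raised in mes-4 were not called in the difference, however. Of 193 X-linked genes called higher in mes-4, 35 were called higher in the difference and 158 were not called there, and 42 were also called higher in mes-2. Over all 1702 X-linked genes tested the median difference was 0.08, and 63.81% lay above 0, against 50.3% of all genes. Per array, the X-linked median minus the median of all genes was 0.20, 0.17, 0.08 and 0.02 on the mes-4 arrays and -0.02, 0.10, -0.075 and 0.13 on the mes-2 arrays. The groups overlapped. The X-linked shift was 0.117 ± 0.082 in mes-4 and 0.034 ± 0.097 in mes-2 (SD, n = 4 each), a difference of 0.083 that did not pass the exact two-sided permutation test (p = 0.257, 0.571 adjusted over 6 chromosomes; 4 against 4 arrays can reach 0.0286). The permutation test and these SDs took no account of dye, so the spread between dyes is part of both. The difference was 0.098 within Cy5 arrays and 0.069 within Cy3 arrays. Computed from means instead it was 0.156, with an exact p of 0.0286, the lowest that this design allows, and 0.171 adjusted over 6 chromosomes. The other 5 chromosomes gave exact p-values between 0.286 and 1.

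**Figure D3:**
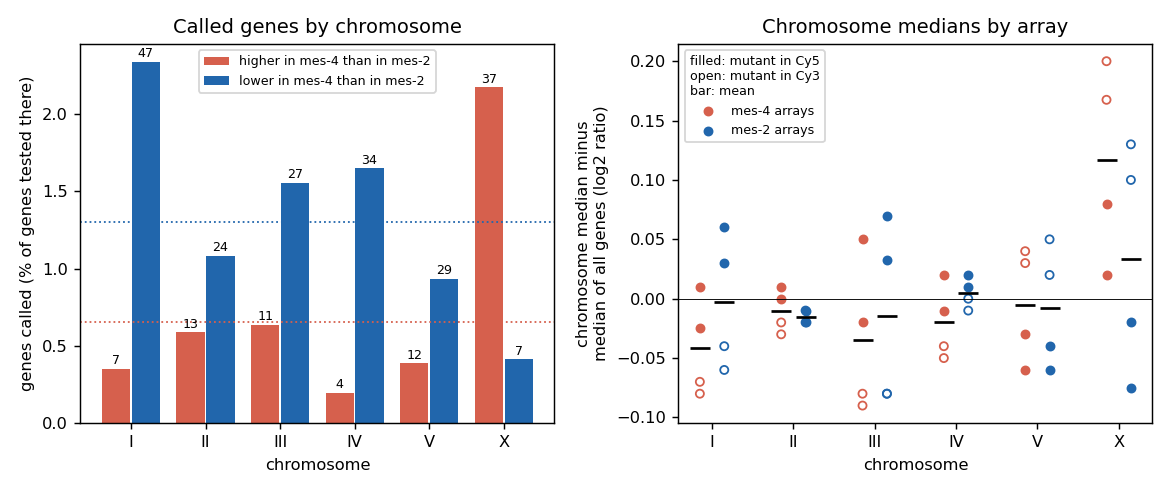
Left, the share of the tested genes of each chromosome called higher or lower in mes-4 than in mes-2, with the number of genes on each bar and dotted lines at 0.652% and 1.3%, the shares over all genes. Right, each array's chromosome median minus the median of all its genes, with bars at group means. The X holds 37 of the 84 higher genes and chromosome I holds 47 of the 168 lower genes. The array medians of X overlap between both mutants, though not among arrays of the same dye.

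The X-linked genes below, apart from rgs-6 and bra-1, were picked after their values were seen, from the 23 with a symbol and, for K04C1.3, from those without one. bra-1 is named for a family of proteins associated with receptors of bone morphogenetic proteins. It had 1.84, 1.74, 2.30 and 3.07 on the mes-4 arrays and 0.82, -0.12, 0.71 and 0.22 on the mes-2 arrays (difference 1.83, SE 0.29, limma adjusted p = 0.0108). vhl-1, the von Hippel-Lindau ubiquitin ligase subunit that targets the hypoxia-inducible factor, had 1.49, 1.24, 2.31 and 1.86 in mes-4 and 0.49, -0.03, 0.54 and 0.12 in mes-2. The lowest mes-4 value of vhl-1 was above its highest mes-2 value (difference 1.45, SE 0.16, limma adjusted p = 0.00119). lmp-1, a lysosomal membrane protein, had 1.02, 0.92, 1.39 and 1.81 in mes-4 and stayed between -0.04 and 0.03 in mes-2 (difference 1.29, SE 0.16, limma adjusted p = 0.00263). tbc-1, named for a domain of Rab GTPase-activating proteins, had 1.22, 1.13, 0.84 and 0.84 in mes-4 and -0.26, 0.26, -0.31 and 0.30 in mes-2. The mes-2 values of tbc-1 split by dye around 0 and its mes-4 values did not reach them (difference 1.01, SE 0.11, limma adjusted p = 0.00103). sorf-1 differed by 1.13 (SE 0.15, limma adjusted p = 0.00318) and pdi-6, a protein disulfide isomerase, by 1.43 (SE 0.23, limma adjusted p = 0.0101). aakb-1, a beta subunit of AMP-activated kinase, differed by 0.76 (SE 0.12, limma adjusted p = 0.00815), and the uncharacterised K04C1.3 by 2.02 (SE 0.22, limma adjusted p = 0.00119). All 8 of these genes except K04C1.3 and tbc-1 had a higher fitted ratio in the double mutant than in mes-4, up to 4.17 for bra-1, 2.81 for vhl-1 and 2.75 for lmp-1. That difference was not tested here.

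Several X-linked calls depended on single arrays. rgs-6, which speeds the turning off of G proteins, had 1.47, 3.00, 2.41 and 1.83 in mes-4 and 0.23, -0.01, 0.92 and 0.19 in mes-2 (difference 1.84, SE 0.37, limma adjusted p = 0.0369), and was called in 5 of 12 fits that each left out 1 array, with the highest adjusted p, 0.115, without mes-2 replicate 1. rpl-11.2, a ribosomal protein gene, differed by 1.19 (SE 0.21, limma adjusted p = 0.0148) and lost its call without mes-2 replicate 1 or mes-4 replicate 1 (adjusted p of at most 0.0613). Of 67 cytoplasmic ribosomal protein genes, rpl-11.2 was the one called (1.493%, near the 1.96% of all genes). The mitochondrial genes idh-2, asb-2 and mff-1 differed by 1.28, 1.05 and 1.02 (SE 0.28, 0.23 and 0.17). mff-1 encodes a fission factor, idh-2 an isocitrate dehydrogenase and asb-2 a subunit of ATP synthase. With 1 array left out, idh-2 was called in 4 of 12 fits (adjusted p up to 0.156), asb-2 in 3 (up to 0.148) and mff-1 in 10 (up to 0.053). aps-2, an adaptor complex subunit, and the F-box gene fbxa-120 were called higher in both mutants and more so in mes-4, with ratios of 1.26 against 0.41 and of 2.08 against 0.97.

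**Figure D4:**
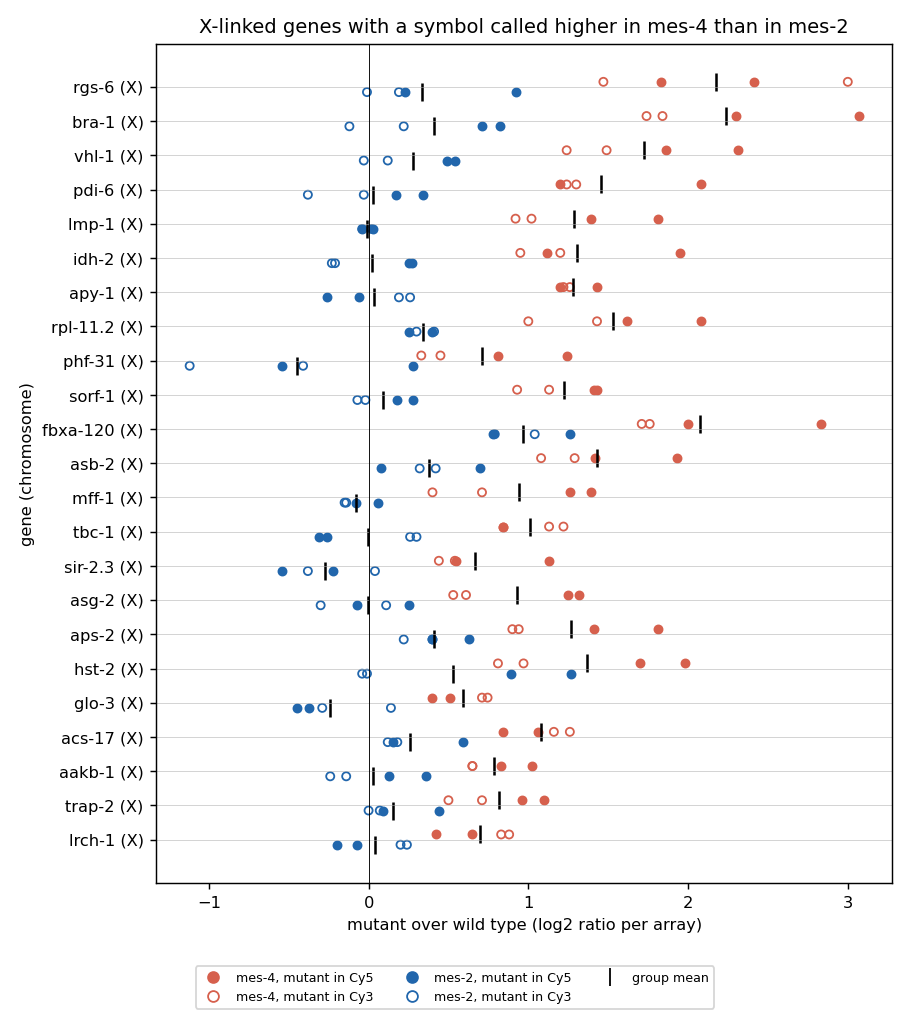
The 23 X-linked genes with a symbol that were called higher in mes-4 than in mes-2, 1 gene per line, with each array's log2 ratio of mutant over wild type on the horizontal axis. Filled points are arrays with the mutant in Cy5, open points those with Cy3, and bars are group means. The mes-4 points lie to the right of 0 for every gene and the mes-2 points gather around 0, with fbxa-120 and hst-2 furthest above it.

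Only 7 X-linked genes were lower in mes-4 than in mes-2, with a median ratio of 0.90 in mes-2 and -0.42 in mes-4. Without mes-2 replicate 3 there were 17. The 5 with a symbol, named after their values were seen, were argn-1, atf-4, lec-8, mxl-3 and pept-1. atf-4, the transcription factor of the integrated stress response, gave 1.23, 1.03, 1.73 and 1.67 in mes-2 and -1.03, -0.87, 0.10 and 0.44 in mes-4 (difference -1.75, SE 0.26, limma adjusted p = 0.0098). mxl-3, a helix-loop-helix factor of lipid metabolism, differed by -1.32 (SE 0.26, limma adjusted p = 0.0271), but was called in only 6 of 12 fits that each left out 1 array. pept-1, the intestinal peptide transporter, differed by -1.18 (SE 0.16, limma adjusted p = 0.00785), with 0.0511 without mes-2 replicate 1.

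Autosomal genes raised in mes-4 and not in mes-2 were fewer, at 14 of the 46. unc-119, a chaperone of lipid-modified proteins best known from neurons, gave 1.35, 1.13, 2.01 and 1.80 in mes-4 and 0.12, 0.11, -0.26 and 0.00 in mes-2 (difference 1.58, SE 0.18, limma adjusted p = 0.00119). It was the one member of a list of 22 neuronal and synaptic genes that was higher in mes-4, and its fitted ratio was 0.19 in the double mutant. lmd-2 gave 1.29, 1.02, 2.15 and 2.06 in mes-4 and 0.53, -0.43, 0.23 and -0.57 in mes-2 (difference 1.69, SE 0.19, limma adjusted p = 0.0012). In contrast to unc-119, lmd-2 stood at 3.38 in the double mutant. R06C1.4, picked after its values were seen, differed by 1.86 (SE 0.28, limma adjusted p = 0.00716) and was at 1.98 in the double mutant.

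The 6 highest differences among the named genes were all of genes lowered in mes-2. The 25 genes lowered in mes-2 and not called in mes-4 had a median ratio of -0.93 in mes-2, 0.15 in mes-4 and -0.09 in the double mutant, and 1 was X-linked. fbxa-193, an F-box gene of chromosome V, was at -3.47, -5.56, -4.45 and -5.39 on the mes-2 arrays and at -0.11, -0.80, -0.38 and -0.60 on the mes-4 arrays. It had the highest difference of all named genes (4.25, SE 0.36, limma adjusted p = 0.000257). homt-1 on chromosome I was at -4.57, -4.81, -4.91 and -4.30 in mes-2 and at -0.81, -0.81, 0.15 and -0.36 in mes-4 (difference 4.19, SE 0.33, limma adjusted p = 0.000197). phf-14, named for a PHD finger, was at -2.19, -2.61, -2.54 and -2.13 in mes-2 and at 0.05, 0.03, 0.08 and 0.44 in mes-4 (difference 2.52, SE 0.17, limma adjusted p = 7.19e-05). The mes-2 probe itself was among the 25 genes. In the double mutant, homt-1 had a fitted ratio of -0.38, phf-14 of -0.10 and fbxa-193 of -1.31, while mes-2 stayed at -2.49. The difference between the mes-2 and double mutants was not tested here, and both were set against unc-4(e120).

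bath-24, of the MATH and BTB domain family, was at -1.13, -2.13, -1.41 and -1.37 in mes-2 and at 0.31, -0.08, 0.88 and 0.21 in mes-4 (difference 1.84, SE 0.30, limma adjusted p = 0.0109, and 0.0508 without mes-4 replicate 1). clc-24, of the claudin-like family, differed by 1.80 (SE 0.32, limma adjusted p = 0.0228), but lost its call without any of 5 single arrays (mes-2 replicates 1 and 4, mes-4 replicates 1, 2 and 3, adjusted p of at most 0.09). F22F1.2, the X-linked gene of the set and picked after its values were seen, was at -1.33, -2.13, -1.07 and -1.50 in mes-2 and at 0.57, 0.32, 1.24 and 0.05 in mes-4 (difference 2.05, SE 0.29, limma adjusted p = 0.00526).

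The F-box A family, whose members are candidate substrate receptors of ubiquitin ligases, had 6 of 112 measured members higher in mes-4 and 1 lower. These were 6.25% of its members, against 1.96% of all genes, and the family median was 0.07 against 0.00 over all genes. The shares were higher in smaller lists, at 13.64% of neuronal and synaptic genes and 9.091% of sperm and of dosage compensation genes. Next to fbxa-193, fbxa-108 was at -3.15, -4.36, -4.38 and -3.85 in mes-2 and at -0.90, -1.45, -0.60 and -1.15 in mes-4, so that it was lowered in both mutants and by more in mes-2 (difference 2.91, SE 0.33, limma adjusted p = 0.00147). Its direct neighbour on chromosome V, fbxa-192, was lowered in both as well, with fitted ratios of -2.56 and -1.30 (difference 1.26, SE 0.23, limma adjusted p = 0.0175), and its groups overlapped. fbxa-136 was raised in mes-4, at 1.14, and not called in mes-2, at -0.16. fbxa-65 was called higher in both mutants, at 1.35 in mes-4 and 0.66 in mes-2, and its groups overlapped. fbxa-218 went the other way, at 1.53 in mes-2 and -0.37 in mes-4 (difference -1.90, SE 0.22, limma adjusted p = 0.00263). With 1 probe in place of the mean of its probes, the difference of fbxa-218 was -1.25 (limma adjusted p = 0.0575). When 1 array was left out, fbxa-65 and fbxa-120 were called in 4 and 2 of 12 fits, fbxa-192 in 7 and fbxa-136 in 9. Members of such families are similar in sequence, and a probe can bind transcripts of more than 1 gene, so that values of single members are uncertain. Of 67 BTB and MATH genes, bath-24 and btb-3 were higher in mes-4 and none was lower (2.985% called, against 1.96% of all genes), with a median of 0.19. Against wild type, 12 of the 67 were lowered in mes-2 and 4 raised, where 1.3% and 3.94% of all genes were. In mes-4 none was lowered and 2 were raised, beside 1.39% and 2.52% of all genes.

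Genes with opposite calls in both mutants were rare. Of 15 such genes, 13 were lower in mes-4 and higher in mes-2, and none of the 15 was X-linked. The 13 had a median ratio of -0.67 in mes-4 and 0.79 in mes-2, and their differences ran from -4.35 to -0.92 within Cy5 arrays and from -4.85 to -1 within Cy3 arrays. pei-2 was at -0.75, -0.49, -0.36 and -0.46 in mes-4 and at 1.34, 1.35, 1.84 and 1.03 in mes-2 (difference -1.91, SE 0.16, limma adjusted p = 0.00024). spe-15, a myosin of the unconventional class VI needed in sperm formation, was at -1.26, -0.54, -1.32 and -0.87 in mes-4 and at 0.98, 0.92, 0.77 and 0.32 in mes-2 (difference -1.75, SE 0.22, limma adjusted p = 0.00264). fat-2, a fatty acid desaturase, was at -1.22, -1.81, -0.31 and -0.20 in mes-4 and at 1.00, 0.50, 1.09 and 0.55 in mes-2. Its mes-4 values were much lower in Cy3 (replicates 1 and 2) than in Cy5, but stayed below 0 (difference -1.67, SE 0.24, limma adjusted p = 0.00526). pgph-1, a phosphoglycolate phosphatase homologue, and rip-1 differed by -1.61 (SE 0.15, limma adjusted p = 0.000561) and -1.59 (SE 0.23, limma adjusted p = 0.00548). The largest difference of the 13, picked after its values were seen, was that of C10C6.7 on chromosome IV. It was at -1.43, -2.21, -1.21 and -0.81 in mes-4 and at 2.95, 2.76, 3.73 and 3.30 in mes-2 (difference -4.60, SE 0.30, limma adjusted p = 7.19e-05), and its fitted ratio in the double mutant was 0.21.

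In the opposite direction were 2 genes. rnh-1.3, a ribonuclease H that degrades RNA in RNA-DNA hybrids, was at 1.49, 1.24, 2.23 and 2.52 in mes-4 and at -1.30, -1.97, -1.81 and -2.01 in mes-2 (difference 3.64, SE 0.34, limma adjusted p = 0.000548). Its fitted ratio in the double mutant was 0.06. ech-4, of the enoyl-CoA hydratase family, was at 0.37, 0.33, 0.43 and 0.64 in mes-4 and at -0.43, -0.84, -0.57 and -0.67 in mes-2, a smaller difference with an SE of 0.11 (1.07, limma adjusted p = 0.000712). The count of 15 was 27 with the 8 arrays alone, 6 without the dye term and between 6 and 20 with 1 array left out.

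Genes lowered in mes-4 and not called in mes-2 numbered 34, with a median ratio of -0.77 in mes-4, 0.14 in mes-2 and -0.36 in the double mutant. ulp-5, a protease of the SUMO pathway, was at -2.17, -2.26, -1.61 and -1.92 in mes-4 and at 0.50, -0.12, 0.31 and -0.23 in mes-2 (difference -2.10, SE 0.18, limma adjusted p = 0.00024). Its fitted ratio in the double mutant was -0.97. The homeobox gene ceh-91 was at -1.28, -0.66, -1.53 and -0.76 in mes-4 and at 0.40, 0.47, 0.59 and 0.26 in mes-2 (difference -1.49, SE 0.21, limma adjusted p = 0.00497). It was the one homeobox gene of 63 that was called (1.587%, near the 1.96% of all genes). Named after their values were seen, goa-1, the G protein alpha subunit Go, differed by -1.13 (SE 0.19, limma adjusted p = 0.013, and 0.0549 without mes-4 replicate 1). The translational repressor gene gld-1 differed by -0.54 (SE 0.12, limma adjusted p = 0.0485) and the RNA interference gene eri-5 by -0.53 (SE 0.12, limma adjusted p = 0.0482). These calls lay close to the threshold and were made in 2 and 1 of the 12 fits that left out 1 array.

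hsp-16.41, a small heat shock gene, had the lowest difference of the named genes without a call in either mutant. It was at -0.99, -1.41, -1.08 and -3.19 in mes-4 and at 2.38, 3.02, 2.41 and -0.03 in mes-2 (difference -3.61, SE 0.74, limma adjusted p = 0.0342). Replicate 4 of mes-2 lay close to 0 and replicate 4 of mes-4 far below the rest. The call held in 5 of 12 fits with 1 array left out, and the adjusted p was 0.107 without mes-2 replicate 1. spp-17, a saposin-like protein gene, was at -1.52, -2.18, -0.13 and -0.45 in mes-4 and at 1.76, 0.55, 1.24 and 1.29 in mes-2 (difference -2.28, SE 0.48, limma adjusted p = 0.0394), and was called in 3 of 12 such fits, with 0.14 without mes-4 replicate 2.

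By chromosome, the lower genes were most frequent on chromosome I, with 47 of 168 (27.98%) against 15.59% of the genes tested, and 7 of its genes were higher. These 47 genes had a median ratio of 0.87 in mes-2 and -0.23 in mes-4. Chromosome IV had 34 lower and 4 higher genes. Among the 244 called genes with a place in the gene order, 10 pairs lay within 2 positions of each other, and 9 of these pairs went the same way. homt-1 and nlp-40 on chromosome I were the exception, as direct neighbours with differences of 4.19 and -1.75. On the X, vhl-1 lay beside F08G12.5 (1.45 and 1.21) and T14F9.2 close to rpl-11.2 (0.87 and 1.19). ceh-91 lay beside gly-8 on chromosome III (-1.49 and -1.04). The number of close pairs among genes placed at random was not computed. As 168 of the 252 called genes were lower, many pairs would share a direction wherever they lie.

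With 1.96% of all genes called, lists of the sizes below would hold less than 1 call each at that share, so that counts of 0 are near this background. There were 0 calls among 35 meiotic genes (median difference 0.05), 18 oocyte and eggshell genes (-0.08), 13 synMuv B and DRM genes (0.09), 27 cell cycle genes (-0.07), 7 genes of histone H3 lysine 36 methylation and its readers (-0.12), 10 histone demethylase genes (-0.13) and 7 other histone methyltransferase genes (0.13). Of the 2 measured genes of the Polycomb repressive complex 2, mes-2 was called and mes-3 gave 0.41, 0.41, 0.57 and 0.47 in mes-2 against -0.27, -0.39, 0.28 and 0.07 in mes-4. The groups of mes-3 did not overlap, but the difference missed the threshold (-0.54, SE 0.13, limma adjusted p = 0.059). sdc-3, which helps to load the dosage compensation complex on the X, was the one called of 11 dosage compensation genes. It was raised in both mutants, at 1.5, 1.33, 1.42 and 1.34 in mes-2 and 0.32, 0.42, 0.49 and 0.46 in mes-4, 2 narrow and separate groups (difference -0.97, SE 0.12, limma adjusted p = 0.00256). With 1 probe in place of the mean of its probes the difference of sdc-3 was -0.87 (limma adjusted p = 0.0826). Single members were called among 32 germline RNA regulators (gld-1) and 43 small RNA genes (eri-5), and both were lower in mes-4.

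Among gene families known from somatic cells, more members were called lower than higher in mes-4, as over all genes. Of 48 G protein, RGS and guanylyl cyclase genes, gpa-1, goa-1 and gcy-19 were lower in mes-4 and rgs-6 higher (8.333% called, against 1.96% of all genes). Of 22 neuronal and synaptic genes, unc-31 and ric-19 were lower and unc-119 higher (13.64%). Of 794 chemosensory receptor genes, 3 were lower and 1 was higher (0.504%), with srh-16 at -1.94 (SE 0.23, limma adjusted p = 0.00306). Among 121 detoxification genes 3 were lower (2.479%), among 147 C-type lectin genes 2 (1.361%), and among 173 nuclear hormone receptors and 123 collagens none was called. The medians of these lists lay between -0.16 for collagens and 0.04 for chemosensory receptors, beside 0.00 over all genes. gcy-19 and gst-10 were called in 2 of 12 fits with 1 array left out, ric-19 in 9 and srw-6 in 7.

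**Figure D5:**
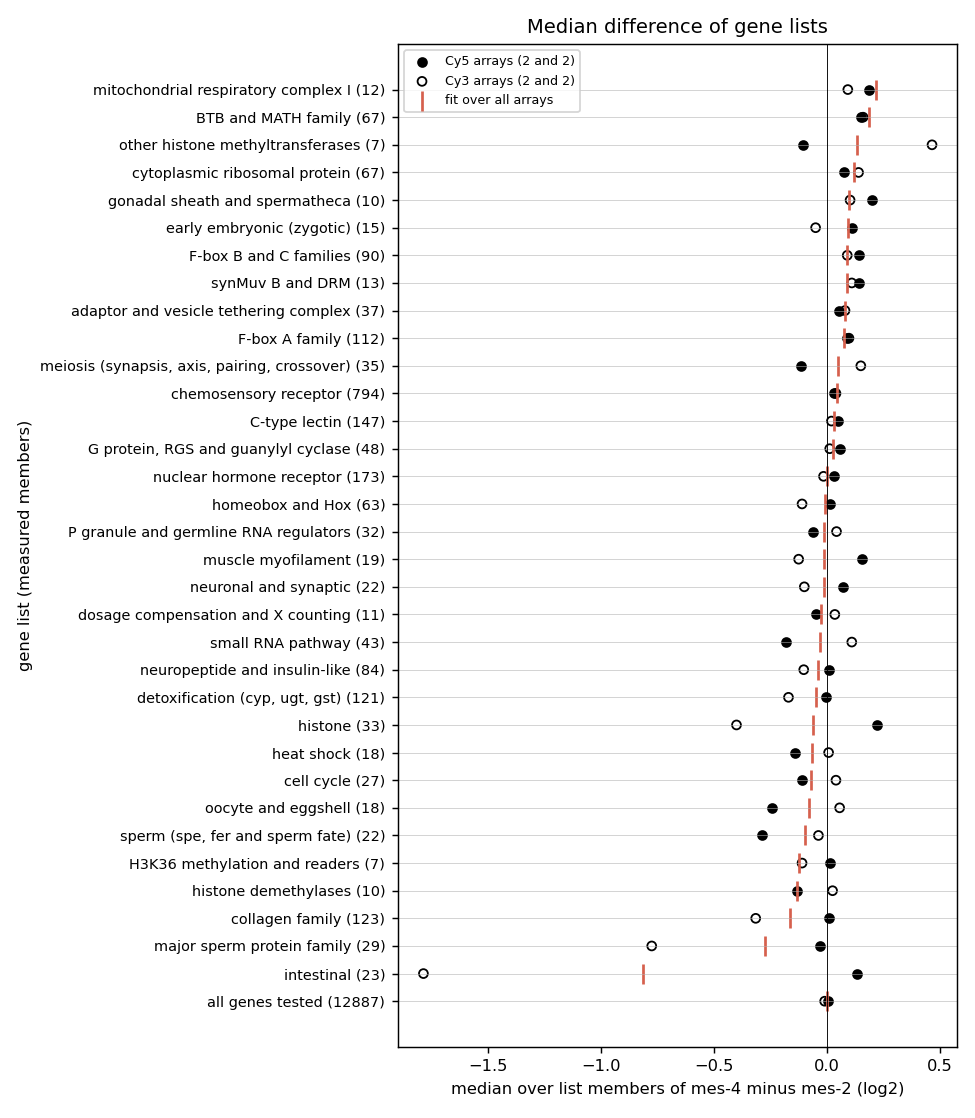
Median over the measured members of each gene list of the difference mes-4 minus mes-2 in log2 units, with the number of members in brackets. Red bars are fitted medians over all arrays, filled points the medians within Cy5 arrays and open points those within Cy3 arrays (2 against 2 arrays each). Most lists lie near 0. The intestinal list has its Cy5 point above 0 at 0.14 and its Cy3 point at -1.78, and the major sperm protein list lies at -0.03 and -0.78.

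A pair of lists stood away from 0 and depended on the dye. The 23 intestinal genes had a median difference of -0.81, with 0.14 among Cy5 and -1.78 among Cy3 arrays. Of them 1, pept-1, was called (4.348%, against 1.96% of all genes). Over the 8 measured of 10 intestinal markers, among them the vitellogenins, the array medians were -1.37, -1.66, -0.36 and -0.17 in mes-4 and 0.55, 0.39, -0.75 and 0.13 in mes-2. elt-2 and ifb-2 of that marker list were not tested. The intestinal actin gene act-5 gave -1.29, -1.51, -0.35 and -0.56 in mes-4 and 1.09, 0.56, 0.44 and 0.93 in mes-2 (difference -1.68, SE 0.38, limma adjusted p = 0.0511). Like the marker medians, fat-2, spp-17, pgph-1 and gst-10 were lower on mes-4 replicates 1 and 2 than on replicates 3 and 4. The same pattern was seen in other genes called lower, among them pept-1 of the intestinal list, atf-4, mxl-3, lec-8, nlp-40 and C10C6.7. It was not seen in spe-15 or rip-1. Whether the genes other than pept-1 are expressed in intestine was not examined. The part of intestinal RNA in these differences was not tested. Within Cy5 arrays alone, the marker medians were -0.36 and -0.17 against 0.55 and -0.75. There fat-2, spp-17, pgph-1 and gst-10 differed by -1.30, -1.79, -1.45 and -1.36, and within Cy3 arrays by -2.04, -2.77, -1.78 and -2.06.

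The 29 major sperm protein genes had a median of -0.28, 2 of them above 0, and none was called. Over 30 measured of 31 sperm markers the array medians were -0.33, -0.67, 0.30 and -0.55 in mes-4 and -0.02, 0.60, -0.10 and 0.16 in mes-2, which overlapped. Of 22 sperm and sperm fate genes, spe-15 and fog-3 were lower in mes-4. fog-3, which commits germ cells to the sperm fate, was at 0.74, 0.66, 0.63 and 0.85 in mes-2 and at -0.21, 0.02, 0.10 and -0.05 in mes-4 (difference -0.76, SE 0.12, limma adjusted p = 0.00815). The part of sperm number in these values was not tested. Markers of the gonadal sheath, muscle and oocytes had median differences of 0.16, 0.05 and -0.04, and germline markers 0.03. ceh-18, unc-22, rab-3, snt-1 and spe-9 of the marker lists were not tested. Array medians of the neuronal markers ran from 0.215 to 0.438 in mes-4 and from 0.005 to 0.278 in mes-2, with unc-31 and unc-119, called in opposite directions, among the 4 measured.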

How the data were processed

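RNA of dissected germ lines was extracted with Trizol, its poly-A fraction amplified, and mutant and wild-type RNA labelled with Cy3 or Cy5 on the same array, per the labels' protocols. For 22490 probes the authors deposited a log ratio from each array. These deposited ratios ran from -9.31 to 9.15 and were taken to be log2 values. The log base, the normalization and the direction of the ratio are not given in the sources used here. The mutant is channel 1 on every array and named first in the titles, so positive values were read as higher in the mutant, and counts with the mes-4 ratios turned are given too. Array medians lay between -0.01 and 0.02, and 17297 to 21879 probes had a value on an array. There is no read depth on arrays, and precision is limited by how many there are.

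Probes were named through the platform annotation (17461 with 1 gene, 0 with several, 5029 with none), of whose gene IDs 17371 were matched and 90 not matched in a gene table of assembly WBcel235, used only for symbols, chromosomes and gene order. Probes of a gene were averaged, and 12887 genes with at least 3 of 4 values in every group were tested, 819 of them with more than 1 probe. Genes were fitted over all 12 arrays with limma 3.58.1 in R 4.3.3 (lmFit and eBayes), with a coefficient per group and a dye term. The p-values are two-sided with Benjamini-Hochberg adjustment over all genes tested, and genes under 0.05 were called. All SEs are limma's. An exact permutation test of 4 against 4 arrays, without a dye term, was used for chromosome medians. On simulated data (12887 genes, 200 changed), the fit of mes-4 minus mes-2 recovered 54% of changes of log2 size 1 and 94% of size 2, with 9 false calls. The simulated noise was independent between arrays. In the data, deviations from group means with the dye effect removed were correlated, for mes-4 replicate 3 at r = 0.641 with double mutant replicate 4 and -0.719 with replicate 2. The 9 false calls are therefore no measure of the false calls in these data.

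Named genes were mes-2, mes-4 and unc-4, the 12 highest and 12 lowest called differences among genes with a symbol and 8 values, the 5 highest and 5 lowest with opposite calls in both mutants, and per gene list the 2 members with the largest absolute difference and 8 values. The rule yielded 90 genes. Other genes, among them the other called members of lists, were named after their values were seen. The genes, the comparison and the 34 gene lists were chosen with earlier results of these data known. Alternatives were the arrays in the fit, the dye term, the replicate number as a block, array scaling and centring, filters on missing values, 1 probe per gene, the variance prior, a fold threshold, and leaving out each array in turn.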

Additional observations from a re-analysis of the deposited data

Results flagged for a closer look

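Genes were tested in each single mutant for 1 array that stood apart from the other 3, as were the chromosome medians. The gap to the nearest array over the range passed the 95% critical value of Dixon's ratio in 14 of 301 groups of 4 arrays, 7 in either mutant. Chance flags about 1 in 20 groups. Of the 14, 4 were on mes-2 replicate 2 and 4 on mes-4 replicate 4.

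On mes-2 replicate 2, ceh-16 was at 3.76 (median of the others 0.42), bath-23 at 2.78 (1.49), clec-104 at 2.08 (1.05) and fbxc-7 at -1.62 (-0.11). Of these 4, clec-104 was called lower in mes-4 than in mes-2. On mes-2 replicate 4, the ribosomal protein gene rps-12 was at -6.22 (0.00) and the Pumilio family gene puf-7 at -3.88 (0.42), and neither gene was called. acs-17 was at 0.59 on mes-2 replicate 3 (0.15). On mes-4 replicate 4, phf-14 was at 0.44 (0.05), small beside its mes-2 values of -2.61 to -2.13, pdi-6 was at 2.08 (1.24), egl-6 at 2.74 (1.74) and apm-3, an adaptor complex subunit, at 2.69 (1.63). rpl-21 was at 0.36 on mes-4 replicate 2 (-0.18). On mes-4 replicate 3, unc-4 was at 0.27 (-0.31) and sir-2.3 at 1.13 (0.54).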

How the results depend on the processing

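The count of called differences (252, with 84 higher and 168 lower) was 386 (138 and 248) with the 8 single-mutant arrays alone, 117 (34 and 83) without the dye term, 419 (144 and 275) with arrays scaled to a common spread, 177 with 53 higher under a trended robust prior, and 31 (10 and 21) with limma's treat test at 1.5-fold. The 15 opposite calls and the counts of single mutants (504 in mes-4, 676 in mes-2) changed as well: 27 opposite calls and 768 genes in mes-4 with the 8 arrays, 6, 283 and 402 (mes-2) without the dye term, 879 genes in mes-4 with scaling, 14, 362 and 541 under the robust prior, and 1, 44 and 92 with treat, where 5 gene lists held a call. Centring, 1 probe per gene and both filters on missing values gave 238 to 266 calls. With 1 array left out, counts ranged from 100 to 342 for the difference (29 to 115 higher, 71 to 227 lower), 210 to 681 for mes-4, 357 to 795 for mes-2, 6 to 20 for opposite calls and 12 to 21 for lists with a call, and the X-linked shift from 0.047 to 0.115. Of 40 called genes under the fixed rule, 18 were called under every alternative that tested them (22, or 21 for snt-4 and srh-16), and 0 changed sign. Signs turned for puf-7 (-0.096, up to 1.31 without another array) and rps-12 (-0.061, up to 2.35) without mes-2 replicate 4, for unc-4 (-0.035, up to 0.187) without mes-4 replicate 3, and for chromosome medians of II (-0.002 with means over genes or without mes-4 replicate 4, up to 0.012), III (0.008 without mes-2 replicate 3, down to -0.049) and V (-0.008 and -0.015 without mes-2 replicates 1 and 3, -0.013 and -0.009 without mes-4 replicates 1 and 2, up to 0.022). None of these was called. The X-linked shift was 0.156 with means over genes (exact p = 0.0286, 0.171 adjusted over 6 chromosomes). Turning the sign of the mes-4 ratios, chosen after seeing the data, gave 558 calls (454 lower), 124 of them among the 252, with 247 genes in mes-4, 366 in mes-2 and 51 opposite calls. The cause of these changes was not tested.

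Replicate numbers are shared by the groups, but same-numbered mes-2 and mes-4 arrays deviated from their group means, with the dye effect removed, at r = 0.273, -0.306, -0.26 and 0.074, so the numbers were not taken as pairs. With the replicate block and the dye term, 115 differences were called (39 and 76), 113 of them shared with the 252, with 9 opposite calls and 323 genes in mes-4.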
